A study of Mus musculus with 14 samples.

Results

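The genes described here are those whose Ensembl identifier appeared in the deposited gene lists of both EZH2 experiments, the loss-of-function and the gain-of-function one. They number 65 of the 3761 genes listed in either experiment, 65 of 3533 in the loss-of-function list and 65 of 294 in the gain-of-function list. Each list holds only genes that the authors called different between mutant and control tumors, so membership was chosen from the same contrasts that are described, and the values below are a description without a test of single genes.

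The 14 samples are diffuse pontine gliomas of C57BL/6 mice, made by injecting the brainstem of pups with avian cells that shed RCAS viruses, which enter only cells carrying the Tv-a receptor driven by the Nestin promoter. The EZH2 LOF group holds 4 tumors (replicates 13 to 16) of Nestin-Tv-a mice with floxed p53 and floxed Ezh2 that received RCAS-PDGF-B and RCAS Cre, and its EZH2 WT controls are 3 tumors (replicates 1 to 3) of mice with floxed p53 and wild-type Ezh2 that received the same viruses, so that p53 was targeted in both. The EZH2 GOF group holds 4 tumors (replicates 1 to 4) of Nestin-Tv-a mice with 1 Ezh2 Y641F allele given RCAS-PDGF-B, an RCAS short hairpin against p53 and RCAS Cre, and its EZH2 WT controls are 3 tumors (replicates 1 to 3) that received RCAS Y in place of Cre and whose labels name wild-type Ezh2. The study adds limits to both models: recombination at Ezh2 was partial in the EZH2 LOF tumors, mutant reads were found in only a minority of the EZH2 GOF tumors, and its methods describe the RCAS Y controls as Y641F carriers without Cre. All tumors thus carried the Tv-a transgene, PDGF-B and a p53 lesion, by Cre in the first experiment and by a hairpin in the second, and the experiments share no tumor. Nothing in the labels says how many mice gave the tumors or on which days they were sequenced.

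EZH2 is the catalytic subunit of Polycomb repressive complex 2, which puts methyl groups on lysine 27 of histone H3 and holds genes, often those with CpG-rich promoters, in a silent state. The Y641F allele changes the catalytic SET domain and is known to raise trimethylation of lysine 27, whereas deletion of the SET domain removes it. In the developing brain the complex is known for restraining neuronal and glial differentiation genes until the proper stage.

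Values are normalized read counts, that is reads per gene divided by a size factor for each tumor, given in the order of the replicate numbers. A log2 ratio is that of the group means, EZH2 LOF or EZH2 GOF over its own EZH2 WT group, followed by its SE where one is given (n = 4 mutant and 3 WT tumors). The smaller the size factor, the more 1 read is worth: it was worth 4.58 normalized counts in EZH2 LOF replicate 13 and 10.7 in EZH2 WT replicate 1 of the gain-of-function experiment, and 2.14 or less in each of the other 12 tumors. Reads in the listed genes ran from 281847 to 1842891 in EZH2 LOF and from 2763245 to 3685186 in their EZH2 WT tumors, and from 151603 to 408977 in EZH2 GOF against 14796, 306759 and 412664 in their EZH2 WT tumors. The median member had 61 reads in the shallow EZH2 WT replicate 1, so its values carry more counting error than those of the other 2 controls. Ezh2, Trp53, Pdgfb and Nes are in neither list, so the targeted gene could not be checked here. Among 21 Polycomb genes, 9 are in the loss-of-function list and none in the gain-of-function list. All 9 were higher in EZH2 LOF tumors, with sums of 1929 to 2209 against 1271 to 1551 in EZH2 WT tumors, and none is among the 65. Among the tumor's lineage markers, 3 of 8 for oligodendrocyte precursors are in the loss-of-function list, all lower in EZH2 LOF (sums of 19189 to 23034, against 28819 to 47926 in EZH2 WT).

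Most of the 65 genes stood on opposite sides of the controls in the 2 mutants. Taken by the sign of the log2 ratio, 30 genes were lower in EZH2 LOF and higher in EZH2 GOF tumors, 23 were higher in EZH2 LOF and lower in EZH2 GOF, 9 were lower in both and 3 were higher in both. The genes with opposite signs thus number 53 of 65. The 30 genes hold most of the shared synaptic and adhesion genes, the 23 most of the shared transcription, chromatin and RNA-binding genes. The 9 include 3 matrix genes and 1 gene of the Purkinje marker list, Slc1a6. Every gene of the channel (26), adhesion (23), cytoskeletal (27), transcription (38) and signaling (33) lists is in the gain-of-function list. Those lists and the synaptic list hold 0 genes that are in the loss-of-function list and not shared. They were drawn up with these results known, so the counts cannot show whether a role is over-represented among the 65. The authors' calls chose the genes, while the rule did not set how the directions in the 2 experiments pair. The share of opposite signs was not tested. Of all genes listed, 1727 (48.9%) were higher and 1806 (51.1%) lower in EZH2 LOF, and 67 (22.8%) were higher and 227 (77.2%) lower in EZH2 GOF. The 65 take 33 of the 67 higher genes (49.3%) and 32 of the 227 lower genes (14.1%) of the gain-of-function list, and 26 of 1727 higher (1.51%) and 39 of 1806 lower genes (2.16%) of the loss-of-function list.

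**Figure D1:**
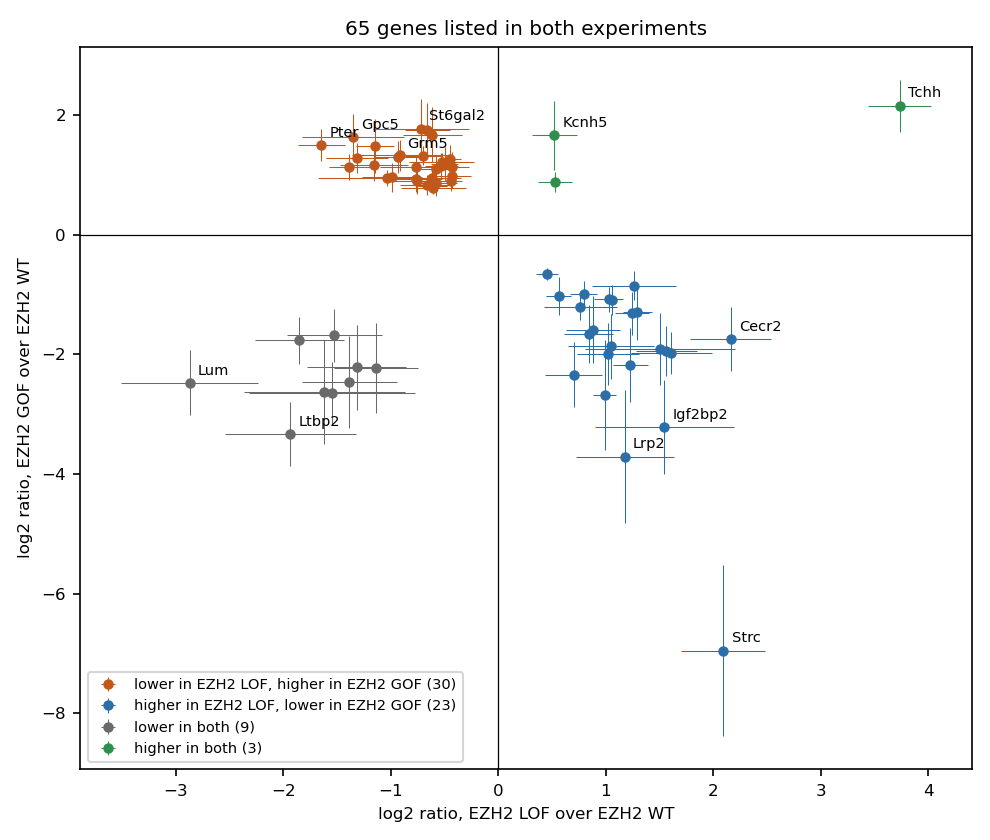
Log2 ratio in EZH2 LOF over EZH2 WT tumors (horizontal axis) against log2 ratio in EZH2 GOF over EZH2 WT tumors (vertical axis) for the 65 genes, colored by direction, with bars of 1 SE (n = 4 mutant and 3 WT tumors in each experiment). On the authors' scale, the 30 genes at the upper left form a tight group, the 23 at the lower right spread further down, with Strc lowest, and 9 and 3 genes lie in the remaining corners.

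The contrast in EZH2 GOF was the larger one for most genes. The absolute log2 ratio was larger in EZH2 GOF than in EZH2 LOF for 55 of the 65, with medians of 1.32 and 0.99. Over all listed genes these medians were 2.48 in EZH2 GOF and 0.71 in EZH2 LOF, so larger ratios in EZH2 GOF are not particular to the 65. For the 30 genes the median log2 ratio was -0.68 in EZH2 LOF and 1.14 in EZH2 GOF, beside medians of -0.61 over all lower genes of the first list and 1.12 over all higher genes of the second. For the 23 genes the medians were 1.06 in EZH2 LOF and -1.74 in EZH2 GOF, beside 0.87 over all higher and -3.02 over all lower genes of the lists. For the 9 genes the medians were -1.55 in EZH2 LOF and -2.46 in EZH2 GOF, and the 3 genes higher in both had medians of 0.53 in EZH2 LOF and 1.66 in EZH2 GOF.

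The directions in EZH2 GOF rest on the size factors that the authors estimated over all genes. Where the count tools were left to set their own scale on the 294 listed genes, most of which are lower in EZH2 GOF, the median of all listed genes moved up by 1.61 with edgeR's TMM and by 1.72 with DESeq2 on the log2 scale, and of the 23 genes lower in EZH2 GOF 11 and 12 then changed sign, as did 0 and 2 of the 9 genes lower in both. Every direction in EZH2 GOF below is meant on the authors' scale. In EZH2 LOF the same tools moved the median by 0.01 and 0.04 and changed the sign of 0 of the 65 genes.

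In the loss-of-function experiment the values of the 4 EZH2 LOF tumors and the 3 EZH2 WT tumors did not overlap for 51 of the 65 genes, beside 86.4% of all listed genes. In the gain-of-function experiment the 2 groups did not overlap for 59 of the 65, beside 92.5% of all listed genes. The groups were apart in both experiments for 46 genes and in neither for 1, Pde5a. Limma was fitted on log2 values of the listed genes alone, with Benjamini-Hochberg adjustment for the number of genes that the authors had tested. By it, 19 of the 65 genes passed an adjusted p of 0.05 as higher and 23 as lower in EZH2 LOF, beside 31.2% and 29.7% of all listed genes (60.9% in either direction). In EZH2 GOF 0 of the 65 passed, beside 4.08% of all listed genes, although limma's unadjusted p was under 0.05 for 65 of 65, beside 99.7% of all listed genes. By other tools on the recovered reads, also at an adjusted p of 0.05, the count in EZH2 GOF was 0 with edgeR on the authors' size factors, beside 1.36% of all listed genes. It was 33 with edgeR's TMM, as 33 higher and 0 lower, beside 22.8% and 2.72% of all listed genes. With DESeq2 it was 34, as 33 higher and 1 lower, beside 22.8% and 8.16%, although 32 of the 65 are lower on the authors' scale. The rule used both contrasts, so nothing is read from these counts. Without the shallow EZH2 WT replicate 1, limma called 1 of the 65 in EZH2 GOF. In EZH2 LOF, the count of 42 fell to between 21 and 27 when any 1 of the tumors LOF 13, 14, 15 or 16 or WT 1 or 2 was left out, and was 41 without WT 3. Without both shallow tumors LOF 13 and 14 it was 13.

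**Figure D2:**
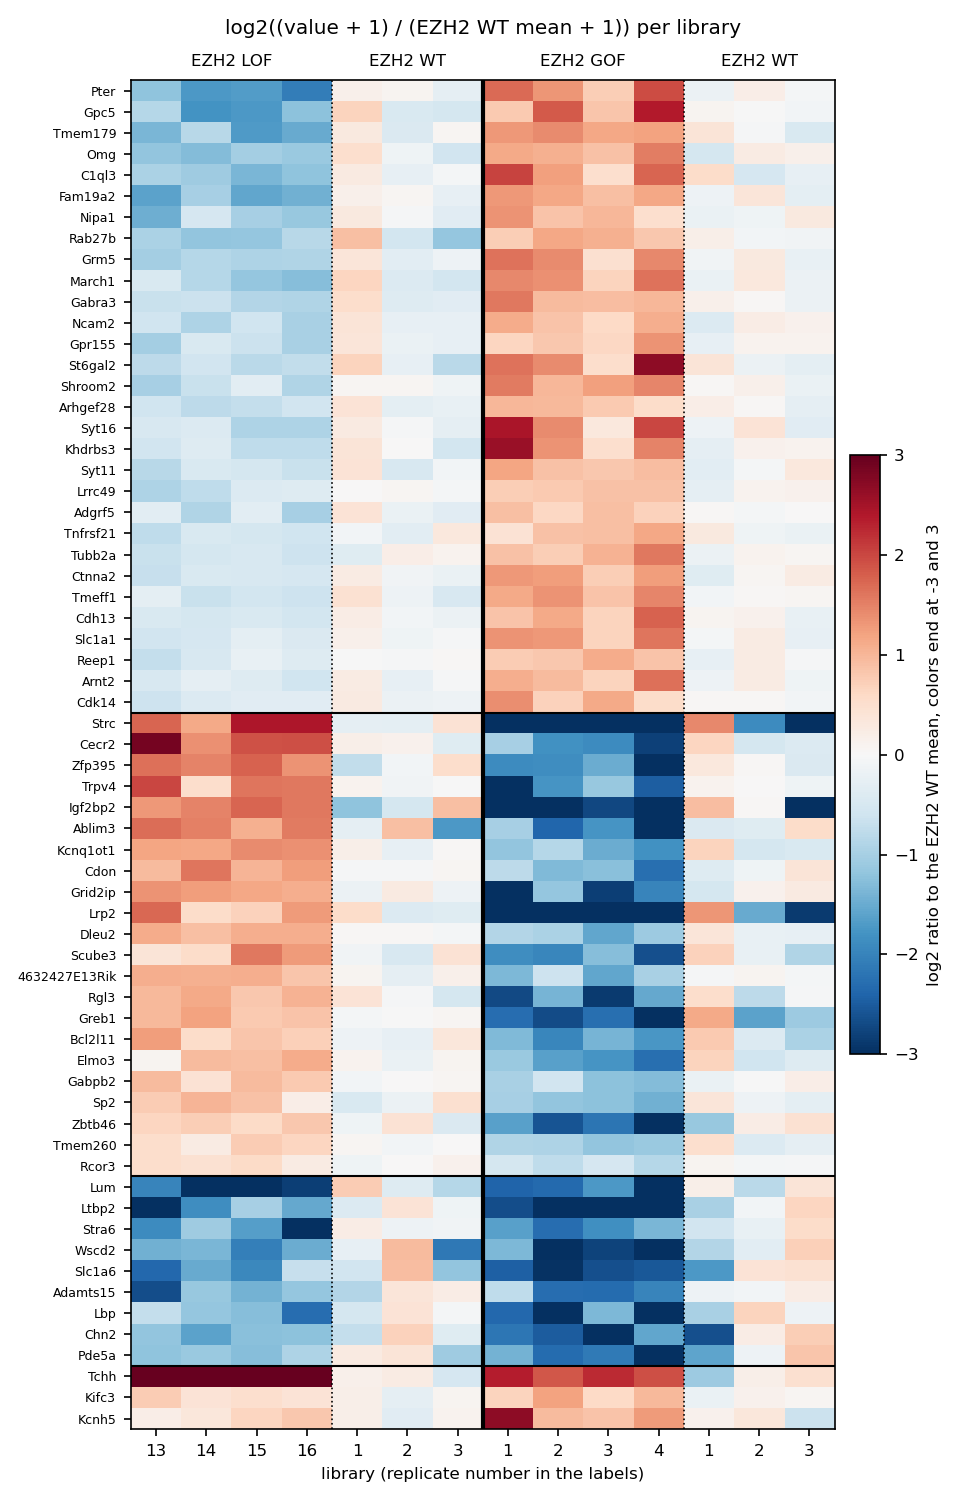
Log2 ratio of each tumor's value to the mean of its own EZH2 WT group, after adding 1 to both, for 64 of the 65 genes (rows, by direction class, then by the smaller absolute log2 ratio of the 2 experiments) in 14 tumors (columns, by group and replicate number); colors end at -3 and 3. On the authors' scale, the 30 genes of the top block are blue across EZH2 LOF and red across EZH2 GOF, the genes of the second block the reverse, and single dark cells within a WT group mark genes whose ratio leans on 1 control tumor.

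To show the start sites behind the leading genes, promoters from RefSeq (GRCm38.p6, 250 bases before to 50 after the start) are printed for the first 1 or 2 genes of each direction class that had an entry, with each CG dinucleotide in capitals because Polycomb repressive complex 2 is known to favor CpG-rich promoters. Pter (ENSMUSG00000026730, chr2:12923791-12924090, plus strand) and Gpc5 (ENSMUSG00000022112, chr14:115091965-115092264, plus strand) lead the genes lower in EZH2 LOF and higher in EZH2 GOF. Strc (ENSMUSG00000033498, chr2:121380891-121381190, minus strand) and Trpv4 (ENSMUSG00000014158, chr5:114658372-114658671, minus strand) lead the genes of the reverse pattern that had an entry. Ltbp2 (ENSMUSG00000002020, chr12:84876442-84876741, minus strand) stands for the genes lower in both and Tchh (ENSMUSG00000052415, chr3:93442080-93442379, plus strand) for those higher in both.
Pter: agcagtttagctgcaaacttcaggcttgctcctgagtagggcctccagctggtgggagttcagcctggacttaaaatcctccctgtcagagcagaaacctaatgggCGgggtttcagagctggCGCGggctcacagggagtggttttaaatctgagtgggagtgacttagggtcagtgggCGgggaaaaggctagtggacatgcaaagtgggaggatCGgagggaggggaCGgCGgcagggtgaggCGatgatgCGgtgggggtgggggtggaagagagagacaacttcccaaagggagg
Gpc5: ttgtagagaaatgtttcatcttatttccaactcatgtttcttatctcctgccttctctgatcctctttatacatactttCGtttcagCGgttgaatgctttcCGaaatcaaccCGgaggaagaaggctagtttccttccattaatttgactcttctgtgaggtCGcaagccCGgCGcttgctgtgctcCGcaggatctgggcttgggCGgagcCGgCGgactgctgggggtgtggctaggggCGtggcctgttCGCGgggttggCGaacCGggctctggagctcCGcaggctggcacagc
Strc: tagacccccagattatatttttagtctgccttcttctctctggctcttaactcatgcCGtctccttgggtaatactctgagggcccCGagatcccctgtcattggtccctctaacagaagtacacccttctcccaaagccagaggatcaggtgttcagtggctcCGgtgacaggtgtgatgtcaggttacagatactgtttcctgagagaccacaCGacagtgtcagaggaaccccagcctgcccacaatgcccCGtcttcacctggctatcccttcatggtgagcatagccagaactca
Trpv4: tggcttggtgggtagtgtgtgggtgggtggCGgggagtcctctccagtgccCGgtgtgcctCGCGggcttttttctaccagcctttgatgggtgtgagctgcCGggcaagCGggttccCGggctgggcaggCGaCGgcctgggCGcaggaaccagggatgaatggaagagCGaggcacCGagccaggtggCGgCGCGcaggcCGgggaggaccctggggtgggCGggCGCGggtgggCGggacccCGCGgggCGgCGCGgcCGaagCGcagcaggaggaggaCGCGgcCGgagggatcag
Ltbp2: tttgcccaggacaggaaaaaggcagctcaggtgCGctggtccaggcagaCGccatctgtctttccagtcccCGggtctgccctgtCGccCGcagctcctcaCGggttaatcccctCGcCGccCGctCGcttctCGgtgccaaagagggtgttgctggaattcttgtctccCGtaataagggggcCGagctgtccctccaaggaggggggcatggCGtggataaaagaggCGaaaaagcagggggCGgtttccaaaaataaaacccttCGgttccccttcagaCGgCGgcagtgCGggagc
Tchh: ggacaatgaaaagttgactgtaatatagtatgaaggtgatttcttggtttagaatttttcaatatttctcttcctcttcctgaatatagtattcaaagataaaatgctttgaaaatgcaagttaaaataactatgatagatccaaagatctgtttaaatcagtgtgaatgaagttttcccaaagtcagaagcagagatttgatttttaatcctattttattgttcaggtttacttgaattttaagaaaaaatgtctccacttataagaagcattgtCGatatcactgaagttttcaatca

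These 6 windows range from 1 CG in Tchh to 30 in Trpv4, with 5 in Strc, 9 in Pter, 17 in Gpc5 and 20 in Ltbp2. The motif CG reads the same on both strands and was counted over 300 bases. An entry was found for 50 of the 65 genes, whose median count was 20, against 21 over the 2794 genes of the loss-of-function list with an entry, 13 over 226 of the gain-of-function list and 7 over all 27025 promoters. At least 10 CG stood in 72% of the 50 windows, against 82.03% of the loss-of-function list, 56.2% of the gain-of-function list and 43.9% of all promoters. Windows with a GC content of at least 50% and an observed over expected CG of at least 0.6 made up 58% of the 50, against 69.3%, 43.4% and 34.1% of these sets. By direction the share was 64% of 25 genes lower in EZH2 LOF and higher in EZH2 GOF, 50% of 18 genes of the reverse pattern and 80% of 5 genes lower in both. A count of CG describes the letters of a window and says nothing of methylation or of Polycomb at it.

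Genes lower in EZH2 LOF and higher in EZH2 GOF made up the largest class, with 30 genes. Pter, a phosphotriesterase-related hydrolase, had the largest smaller change of the class, at 137, 96.4, 100.05 and 75.1 in EZH2 LOF tumors, against 357, 336 and 266 in EZH2 WT tumors. The log2 ratio was -1.64 ± 0.22. In the gain-of-function experiment Pter stood at 2105, 1641, 1085 and 2511 in EZH2 GOF tumors, against 576, 749 and 623 in EZH2 WT tumors, that is 2.83-fold higher (SE 0.27 on the log2 scale). All EZH2 LOF tumors lay below and all EZH2 GOF tumors above their controls. Gpc5, a heparan sulfate proteoglycan of the cell surface and one of the astrocyte markers, had 197, 103, 109 and 153 in EZH2 LOF tumors, against 567, 262 and 248 in EZH2 WT tumors (-1.36 ± 0.47). It had 1063, 2227, 1104 and 3226 in EZH2 GOF tumors, against 651, 616 and 584 in EZH2 WT tumors (1.63 ± 0.39). The 3 controls of the second experiment lay close together, whereas EZH2 GOF replicates 2 and 4 stood well above replicates 1 and 3. Omg, the oligodendrocyte-myelin glycoprotein that binds the Nogo receptor on axons, had 289, 268, 324 and 307 in EZH2 LOF tumors, against 935, 605 and 447 in EZH2 WT tumors (-1.16). It had 2929.6, 2779.9, 2455 and 3850.0 in EZH2 GOF tumors, against 918, 1592 and 1489 in EZH2 WT tumors (1.17), and neither pair of groups overlapped. March1, a membrane ubiquitin ligase that lowers MHC class II at the cell surface, had 229, 173, 141 and 130.00 in EZH2 LOF tumors, against 497, 237 and 216 in EZH2 WT tumors (-0.91). Its EZH2 LOF and EZH2 WT values overlapped. It had 1533, 1451, 886 and 1739 in EZH2 GOF tumors, against 491, 696 and 493 in EZH2 WT tumors (1.32), which did not overlap.

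The synaptic list held 14 of the 65 genes, of which 12 followed this pattern. Of the 12 synaptic genes listed in EZH2 GOF only, 4 were higher and 8 lower, so that the whole list had 16 higher and 10 lower there. Among receptors, Grm5, a metabotropic glutamate receptor, was the most abundant, at 1072, 1203, 1151 and 1162 in EZH2 LOF tumors, against 2829, 1757 and 1971 in EZH2 WT tumors (-0.93 ± 0.22). In the second experiment Grm5 had 8793, 7624, 3958 and 7792 in EZH2 GOF tumors, against 2636, 3479 and 2438 in EZH2 WT tumors (1.30 ± 0.27). The EZH2 LOF tumors agreed within narrow limits, and EZH2 GOF replicate 3 was the closest of its group to the controls. Gabra3, a subunit of GABA-A receptors, had 197, 201, 169.9 and 168 in EZH2 LOF tumors, against 454, 239 and 248 in EZH2 WT tumors (-0.77). It had 2416, 1558, 1545 and 1611 in EZH2 GOF tumors, against 896, 826 and 713 in EZH2 WT tumors (1.13). Here EZH2 GOF replicate 1 stood apart above the other 3. Slc1a1, a neuronal glutamate and cysteine transporter, had 367, 385, 451 and 408 in EZH2 LOF tumors, against 606, 504 and 538 in EZH2 WT tumors (-0.45). It had 2128, 2048, 1322 and 2526 in EZH2 GOF tumors, against 800.3, 991 and 704 in EZH2 WT tumors (1.27). Its groups did not overlap in either experiment.

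Secreted and membrane proteins of the synapse had the same signs. C1ql3, a secreted C1q-like protein that organizes synapses, had 87.1, 79.2, 64.7 and 72.8 in EZH2 LOF tumors, against 202, 143 and 160.4 in EZH2 WT tumors (-1.15). Its values of 1908, 1091, 665 and 1574 in EZH2 GOF tumors, against 683, 329 and 391 in EZH2 WT tumors (1.49) overlapped, since EZH2 GOF replicate 3 fell just under EZH2 WT replicate 1. The spans of Pter and C1ql3 overlap by 1569 bases on opposite strands of chromosome 2, and annotated genes on the opposite strand cover 64.2% of the exon bases of C1ql3, as they do for 31.9% of those of Slc1a1. The library kit keeps the strand, but the strand setting of the counting is not given in the sources used here, so the part of reads from the other strand was not tested. Fam19a2, a secreted chemokine-like protein of the brain, had 133, 203, 137 and 149 in EZH2 LOF tumors, against 455, 421 and 345 in EZH2 WT tumors (-1.39), and 1580.3, 1423, 1188 and 1432 in EZH2 GOF tumors, against 576, 820.3 and 523 in EZH2 WT tumors (1.14). Tmem179, a transmembrane protein, had 151, 221, 119 and 137 in EZH2 LOF tumors, against 476, 287 and 409 in EZH2 WT tumors (-1.31), and 1893, 2025, 1709 and 1769 in EZH2 GOF tumors, against 992, 743 and 552 in EZH2 WT tumors (1.28). All EZH2 LOF values of these 2 genes lay below, and all EZH2 GOF values above, those of their controls.

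Vesicle and membrane trafficking genes of the synaptic list followed the same pattern. Rab27b, a small GTPase of vesicle secretion, had 73.3, 62.1, 63.3 and 79.9 in EZH2 LOF tumors, against 268, 96.7 and 63.6 in EZH2 WT tumors (-1.04). This difference leaned on EZH2 WT replicate 1, without which the log2 ratio was -0.20, and the groups overlapped with and without it. Rab27b in the second experiment had 1083, 1453, 1362 and 1146 in EZH2 GOF tumors, against 736, 613 and 611 in EZH2 WT tumors (0.95), with the groups apart. Syt11, a synaptotagmin and the most abundant of the 65 genes, had 1966, 2569.5, 2439 and 2210.0 in EZH2 LOF tumors, against 4676, 2533 and 3325 in EZH2 WT tumors (-0.61). It had 20006, 16357, 15371 and 16789 in EZH2 GOF tumors, against 7106, 8436 and 10943 in EZH2 WT tumors (0.96). Of its sequence words of 50 bases, 5.86% also occur in other genes. Syt16, another synaptotagmin, had 247, 259, 181 and 180.1 in EZH2 LOF tumors, against 412, 334 and 284 in EZH2 WT tumors (-0.66). It had 3208, 1564, 728 and 2359 in EZH2 GOF tumors, against 523, 775 and 459.9 in EZH2 WT tumors (1.75). EZH2 GOF replicate 3 fell among its controls while replicate 1 was the highest. Reep1, which shapes the endoplasmic reticulum in neurons, had 449, 525, 636 and 559 in EZH2 LOF tumors, against 732, 723 and 756 in EZH2 WT tumors (-0.44), and 2866, 2928, 3617 and 3059 in EZH2 GOF tumors, against 1408, 1976 and 1646 in EZH2 WT tumors (0.89). Gpr155, a lysosomal membrane protein that senses cholesterol, had 202, 299.8, 263 and 211 in EZH2 LOF tumors, against 532, 357 and 348 in EZH2 WT tumors (-0.76), and 1568, 1758, 1540.0 and 2543 in EZH2 GOF tumors, against 843, 1077 and 1072 in EZH2 WT tumors (0.89). Both of these genes kept their groups apart in both experiments.

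Cell adhesion genes followed, with 6 of the 7 shared genes of that list in this class. The 16 adhesion genes listed in EZH2 GOF only were split, 7 higher and 9 lower. Ncam2, a neural cell adhesion molecule, had 848, 668, 845 and 651 in EZH2 LOF tumors, against 1670.4, 1085 and 1081 in EZH2 WT tumors (-0.76), and 5343, 4488, 3731 and 5246 in EZH2 GOF tumors, against 1867, 2861 and 2682 in EZH2 WT tumors (0.93). Ctnna2, the neuronal alpha-catenin that ties cadherins to actin, had 495, 587, 576 and 559 in EZH2 LOF tumors, against 955, 746 and 698 in EZH2 WT tumors (-0.53), and 4077, 3928, 2756 and 3956 in EZH2 GOF tumors, against 1291, 1719 and 1964 in EZH2 WT tumors (1.15). Cdh13, a cadherin held by a lipid anchor, also placed in the synaptic list, had 486, 465, 491 and 460.4 in EZH2 LOF tumors, against 784, 633 and 595 in EZH2 WT tumors (-0.50), and 1380.2, 1674, 1195 and 2599 in EZH2 GOF tumors, against 800.3, 821 and 648 in EZH2 WT tumors (1.18). For these 3 genes no tumor crossed into the range of the other group in either experiment. Adgrf5, an adhesion G protein-coupled receptor, had 257, 171, 257 and 162 in EZH2 LOF tumors, against 429.8, 279.9 and 256 in EZH2 WT tumors (-0.60), with LOF replicates 13 and 15 touching the range of the controls. It had 1113, 925, 1121 and 964 in EZH2 GOF tumors, against 619, 579 and 600.3 in EZH2 WT tumors (0.78), the smallest ratio in EZH2 GOF of the class. Shroom2, a regulator of actin at cell junctions, had 197, 248, 317 and 211 in EZH2 LOF tumors, against 409.8, 413 and 361 in EZH2 WT tumors (-0.70). It had 2886, 1938, 2280.0 and 2680.0 in EZH2 GOF tumors, against 1003, 1083 and 848 in EZH2 WT tumors (1.32). Omg, given above, is the sixth adhesion gene.

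Among cytoskeletal, signaling and transport genes of the class, Tubb2a, a beta-tubulin, had 568, 619, 639 and 582 in EZH2 LOF tumors, against 697, 1038 and 964 in EZH2 WT tumors (-0.58). It had 4067, 3744, 4574 and 6711 in EZH2 GOF tumors, against 1974, 2376 and 2329 in EZH2 WT tumors (1.10). Its value is uncertain, because 49.6% of its 50-base words occur in other genes. How the counting treated such reads is not given in the sources used here. Lrrc49, a subunit of a tubulin polyglutamylase complex, had 211, 238, 303 and 307 in EZH2 LOF tumors, against 409, 419 and 385 in EZH2 WT tumors (-0.61), and 1765, 1825, 1945 and 1945 in EZH2 GOF tumors, against 886, 1141 and 1168 in EZH2 WT tumors (0.81). Nipa1, a magnesium transporter, had 64.2, 126, 89.01 and 79.9 in EZH2 LOF tumors, against 219, 175 and 141 in EZH2 WT tumors (-0.99), and 2176, 1532, 1696 and 1203 in EZH2 GOF tumors, against 736, 771 and 1044 in EZH2 WT tumors (0.96). The groups of all 3 genes were apart in both experiments. Arhgef28, a guanine nucleotide exchange factor, had 73.3, 64.2, 67.7 and 73.9 in EZH2 LOF tumors, against 148, 90.3 and 94.7 in EZH2 WT tumors (-0.67), and 939, 931, 811 and 689.99 in EZH2 GOF tumors, against 544, 485 and 391 in EZH2 WT tumors (0.83). Cdk14, a kinase that works with cyclin Y in Wnt signaling, had 367, 426, 451 and 447 in EZH2 LOF tumors, against 690.4, 501 and 514 in EZH2 WT tumors (-0.43), and 6119, 3709.6, 5057 and 3395 in EZH2 GOF tumors, against 2379, 2366 and 2188 in EZH2 WT tumors (0.98). These kept their groups apart too, and Cdk14 had the log2 ratio nearest to 0 of the class in EZH2 LOF.

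A pair of gene regulators belonged to this class, against the direction of the others in their list. Arnt2, a basic helix-loop-helix transcription factor of neurons, had 1224, 1422, 1306 and 1134 in EZH2 LOF tumors, against 2023, 1440.4 and 1678 in EZH2 WT tumors (-0.43). It had 7510.4, 6823, 5555 and 10983 in EZH2 GOF tumors, against 3158, 4159 and 3214 in EZH2 WT tumors (1.14). Khdrbs3, an RNA-binding regulator of splicing in neurons, had 266, 304, 235 and 236 in EZH2 LOF tumors, against 523, 400.1 and 274 in EZH2 WT tumors (-0.62), with LOF replicate 14 above EZH2 WT replicate 3. It had 4628, 1969, 1089.6 and 2160.3 in EZH2 GOF tumors, against 640.2, 847 and 825 in EZH2 WT tumors (1.68), with replicate 1 more than the others. The remaining members are St6gal2, a sialyltransferase (-0.72 in EZH2 LOF and 1.77 in EZH2 GOF), Tnfrsf21, the death receptor DR6 (-0.58 and 0.86), and Tmeff1, a membrane protein with follistatin-like domains (-0.53 and 1.22). In EZH2 LOF the groups overlapped for St6gal2 and Tmeff1, and without EZH2 WT replicate 1 the ratio of St6gal2 was -0.22.

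Read across tumors, the class leaned on 1 control in the first experiment. EZH2 WT replicate 1 was the highest of its group for 25 of the 30 genes. As a median over the 30 genes, the ratio to the EZH2 WT mean was 0.60, 0.64, 0.62 and 0.55 in the EZH2 LOF tumors, against 1.22, 0.88 and 0.85 in the EZH2 WT tumors, so that EZH2 LOF tumors also lay below WT replicates 2 and 3. In the second experiment it was 2.36, 2.15, 1.76 and 2.64 in EZH2 GOF, against 0.91, 1.07 and 0.94 in EZH2 WT, and EZH2 GOF replicate 3 was the lowest of its group for 19 of the 30. Markers of oligodendrocyte precursors, which the tumor cells themselves can carry, and of astrocytes moved with the first of these contrasts. In EZH2 WT replicate 1 the 3 listed oligodendrocyte precursor markers summed to 47926 and the 2 astrocyte markers other than Gpc5 to 8866, the highest of the 7 tumors, against 19189 to 23034 and 3314 to 4501 in EZH2 LOF. Also highest there were markers of mature oligodendrocytes other than Omg (3360) and of fibroblasts other than Lum (27315, nearly all Pdgfra). So were Itgam of microglia (389) and Pdgfrb of mural cells (503). The neuron markers Gad1 and Tubb3 summed to 513 to 943 in EZH2 LOF, against 996, 1479 and 1033 in EZH2 WT. They were thus highest in EZH2 WT replicate 2, as were Fat2, Itpr1 and Clic6, markers of other types. The part of these markers in the result was not tested, and in bulk tumors fewer cells of a type and less RNA per cell cannot be told apart. No precursor marker is in the gain-of-function list.

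**Figure D3:**
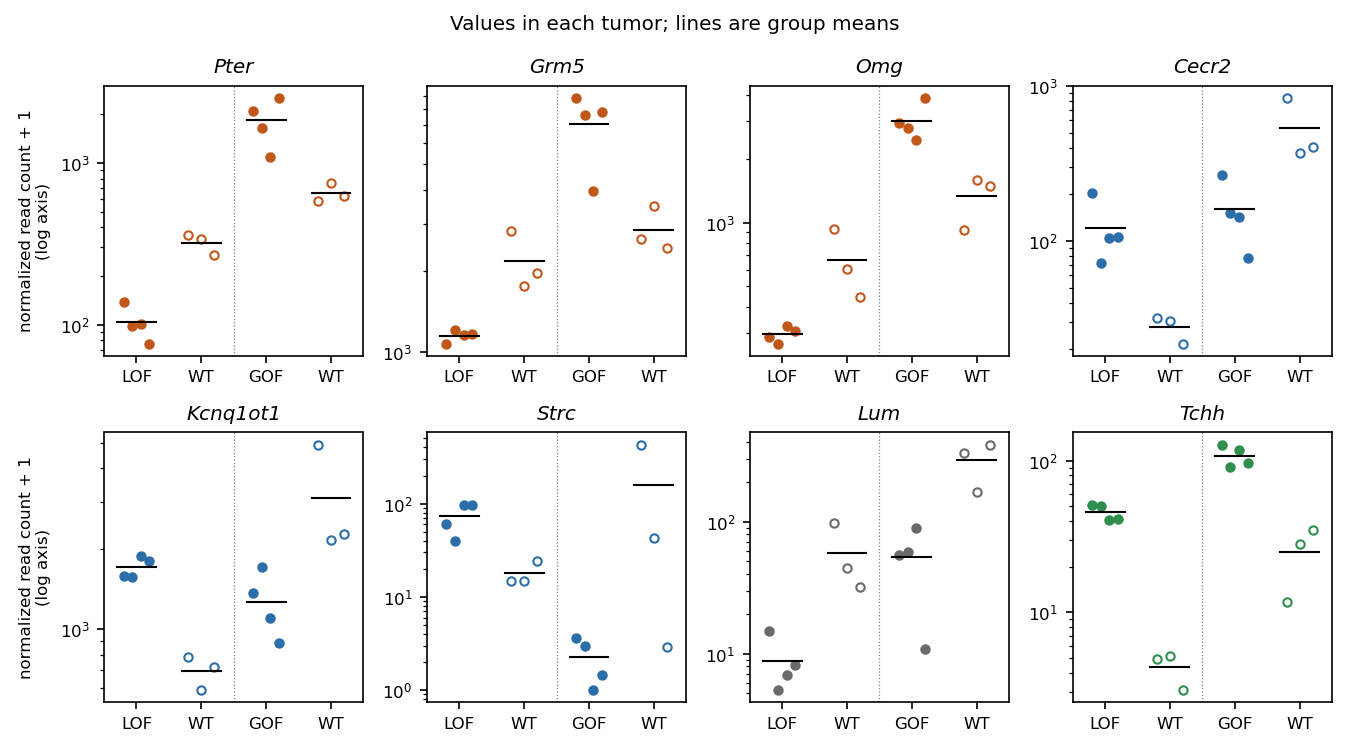
Normalized read count plus 1 (log axis) in each tumor for 8 genes, with EZH2 LOF and EZH2 GOF as filled and EZH2 WT as open points; lines are group means. On the authors' scale, Pter, Grm5 and Omg are lower in EZH2 LOF and higher in EZH2 GOF, Cecr2, Kcnq1ot1 and Strc the reverse, Lum is lower and Tchh higher in both, and for Strc 1 control at 427 sets the mean of the gain-of-function controls.

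Genes of this class were also long. From start to end of the listed location their median span was 89.9 kb, and 11 of the 30 (36.7%) spanned at least 200 kb, up to 1433 kb for Gpc5. A listed location can fall short of the whole gene, so spans and shares are approximate. That of Kcnq1ot1 spans 83.4 kb, but its annotated exons hold 93092 bases, and the promoter window of Shroom2 lies outside its listed location. The share was 31.3% over all 67 genes higher in EZH2 GOF and 7.05% over the 227 lower ones, but 5.87% over the 1806 genes lower in EZH2 LOF. None of the 23 genes of the reverse pattern reached 200 kb, and their median span was 36.3 kb. Span was not used by the rule, yet long genes share it with the rest of the genes higher in EZH2 GOF, so it is not particular to the 30.

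**Figure D4:**
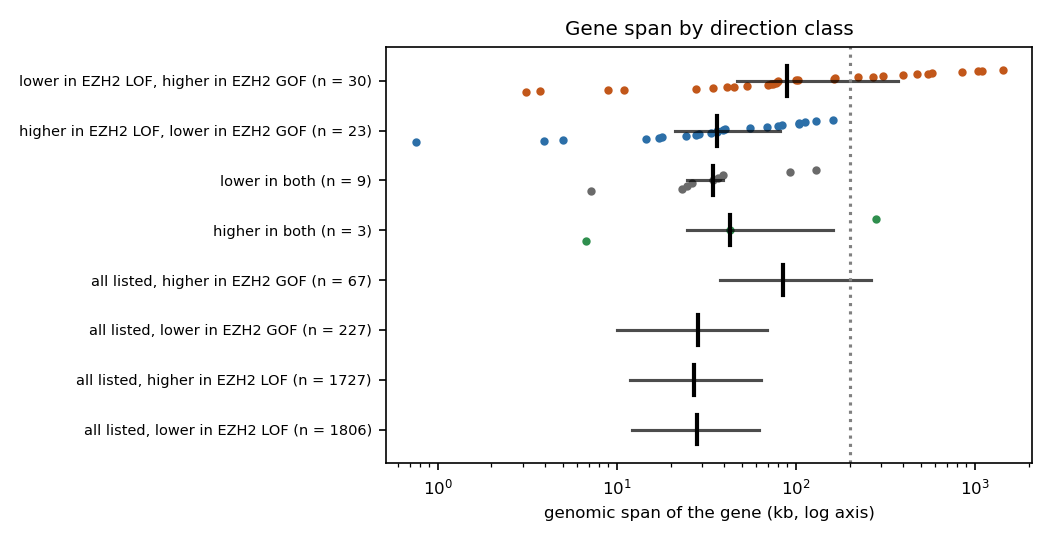
Span of the listed gene location in kb (log axis) for each member by direction class (points) and quartiles with the median (bars) for the classes and for all genes of the 2 lists by direction; the dotted line marks 200 kb. The 30 genes lower in EZH2 LOF and higher in EZH2 GOF have a median of 89.9 kb, near that of all genes higher in EZH2 GOF and above the 36.3 kb of the 23 genes of the reverse pattern.

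Genes higher in EZH2 LOF and lower in EZH2 GOF numbered 23. Of the list of transcription factors, chromatin and RNA-binding proteins, 9 of the 11 shared genes were in this class on the authors' scale. Of the 27 regulators listed in EZH2 GOF only, 3 were higher and 24 lower. Cecr2, a bromodomain protein of chromatin remodeling complexes, had 202, 70.7, 103 and 105 in EZH2 LOF tumors, against 30.6, 29.2 and 20.7 in EZH2 WT tumors (2.16 ± 0.38). Cecr2 in the second experiment had 267, 151, 143 and 76.2 in EZH2 GOF tumors, against 832, 367 and 400.2 in EZH2 WT tumors (-1.74 ± 0.54). Every EZH2 LOF tumor lay above its controls and every EZH2 GOF tumor below them. Zfp395, a zinc finger protein, had 101, 89.9, 109 and 81.1 in EZH2 LOF tumors, against 18.4, 29.6 and 45.5 in EZH2 WT tumors (1.61). It had 114, 114, 148 and 49.4 in EZH2 GOF tumors, against 523, 427 and 309 in EZH2 WT tumors (-1.98), with no overlap. Igf2bp2, an mRNA-binding protein of fetal tissues and tumors, had 261, 295, 352 and 317 in EZH2 LOF tumors, against 45.1, 73.2 and 197 in EZH2 WT tumors (1.54 ± 0.65). Without EZH2 WT replicate 3 that log2 ratio was 2.37. In the second experiment Igf2bp2 had 23.9, 31.4, 40.8 and 23.1 in EZH2 GOF tumors, against 523, 284 and 21.8 in EZH2 WT tumors (-3.21 ± 0.78), with EZH2 WT replicate 3 below every EZH2 GOF tumor, and without the shallow replicate 1 the ratio was -2.36.

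Greb1, a chromatin-bound cofactor known from estrogen signaling, had 45.8, 53.5, 39.7 and 41.7 in EZH2 LOF tumors, against 21.7, 22.8 and 23.8 in EZH2 WT tumors (0.99). It had 47.8, 36.1, 48.3 and 16.003 in EZH2 GOF tumors, against 523, 77.7 and 110.3 in EZH2 WT tumors (-2.68). Its ratio in EZH2 GOF was -1.34 without EZH2 WT replicate 1, and the groups stayed apart. Gabpb2, a subunit of the GA-binding transcription factor, had 357, 248, 355 and 316 in EZH2 LOF tumors, against 174, 185 and 193 in EZH2 WT tumors (0.79). It had 535, 704, 449 and 426 in EZH2 GOF tumors, against 907, 1034 and 1206 in EZH2 WT tumors (-0.99). Its groups did not overlap in either experiment. Sp2, a zinc finger transcription factor, had 82.5, 98.5, 89.7 and 54.9 in EZH2 LOF tumors, against 34.5, 42.1 and 67.3 in EZH2 WT tumors (0.76), with LOF replicate 16 inside the range of the controls, and 143, 125, 120.1 and 104 in EZH2 GOF tumors, against 363, 256 and 232 in EZH2 WT tumors (-1.21). Zbtb46, a zinc finger factor known from dendritic cells, had 77.9, 83.5, 74.3 and 88.3 in EZH2 LOF tumors, against 45.7, 67.1 and 36.7 in EZH2 WT tumors (0.70), and 264, 135, 178 and 68.7 in EZH2 GOF tumors, against 373, 952 and 1129 in EZH2 WT tumors (-2.34). Rcor3, a corepressor of the CoREST family, had 229, 216, 235 and 186 in EZH2 LOF tumors, against 144, 158 and 172 in EZH2 WT tumors (0.46). It had 498, 419, 503 and 395 in EZH2 GOF tumors, against 758, 689 and 693 in EZH2 WT tumors (-0.65). Rcor3 had the smallest ratios of the class in both experiments, yet its groups were apart in both.

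All 3 shared noncoding genes were in this class. Kcnq1ot1, an imprinted noncoding RNA that silences neighboring genes in cis, was the most abundant, with 1577, 1569.5, 1871 and 1799.7 in EZH2 LOF tumors, against 783, 588 and 718 in EZH2 WT tumors (1.29 ± 0.14). It had 1359, 1707, 1100.3 and 886 in EZH2 GOF tumors, against 4908, 2151 and 2261 in EZH2 WT tumors (-1.30 ± 0.46). The groups were apart in both, and EZH2 WT replicate 1 was far above the other controls in the second. Dleu2, the host RNA of the miR-15a and miR-16-1 cluster, had 353, 306, 347 and 346 in EZH2 LOF tumors, against 165, 166 and 157 in EZH2 WT tumors (1.06), and 305, 292, 189.8 and 264 in EZH2 GOF tumors, against 726, 479 and 473 in EZH2 WT tumors (-1.09). The RIKEN locus 4632427E13Rik had 293, 287, 293 and 247 in EZH2 LOF tumors, against 145, 115 and 153 in EZH2 WT tumors (1.03), and 189, 312, 163 and 246 in EZH2 GOF tumors, against 469, 512 and 462 in EZH2 WT tumors (-1.08). Within each of the 4 groups these 2 RNAs differed between tumors by less than 2 times. Bcl2l11, the BH3-only protein BIM that promotes apoptosis, was the only shared gene of the BCL2 family, with 137, 83.5, 102 and 94.2 in EZH2 LOF tumors, against 50.7, 47.8 and 71.4 in EZH2 WT tumors (0.88). It had 226, 146, 214 and 168 in EZH2 GOF tumors, against 982, 424 and 294 in EZH2 WT tumors (-1.59), and without EZH2 WT replicate 1 the ratio was -0.93.

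Structural and receptor genes completed the class. Strc, the stereocilin of inner ear hair bundles, had 59.6, 38.5, 95.6 and 95.4 in EZH2 LOF tumors, against 13.9, 13.7 and 23.3 in EZH2 WT tumors (2.09 ± 0.39). Strc in the second experiment had 2.58, 2.01, 0 and 0.471 in EZH2 GOF tumors, against 427, 41.5 and 1.92 in EZH2 WT tumors (-6.95 ± 1.43). Only EZH2 WT replicates 1 and 2 were above the EZH2 GOF tumors. The value of the shallow replicate 1 stands for 40 reads, and without it the log2 ratio was -4.10 and the groups overlapped. Trpv4, a calcium-permeable channel also used as a choroid plexus marker, had 91.7, 32.1, 69.2 and 67.98 in EZH2 LOF tumors, against 23.9, 20.5 and 21.7 in EZH2 WT tumors (1.56), and 27.1, 69.6, 107 and 42.4 in EZH2 GOF tumors, against 256, 241 and 217 in EZH2 WT tumors (-1.95). Ablim3, an actin-binding LIM protein, had 91.7, 81.4, 59.6 and 83.5 in EZH2 LOF tumors, against 22.8, 52.7 and 7.76 in EZH2 WT tumors (1.51), a ratio that was 2.37 without EZH2 WT replicate 2. It had 362, 137, 210.2 and 52.2 in EZH2 GOF tumors, against 534, 559.8 and 1059.5 in EZH2 WT tumors (-1.92). Their groups were apart in both experiments. Cdon, a cell surface coreceptor of Hedgehog signaling and the 1 adhesion gene of the class, had 109.99, 171, 114 and 136 in EZH2 LOF tumors, against 55.1, 54.6 and 58.5 in EZH2 WT tumors (1.24). It had 381, 260.2, 276 and 136 in EZH2 GOF tumors, against 502, 602 and 857 in EZH2 WT tumors (-1.31). Scube3, a secreted glycoprotein, had 77.9, 87.8, 182 and 147 in EZH2 LOF tumors, against 55.1, 42.5 and 81.8 in EZH2 WT tumors (1.05), with replicate 13 below EZH2 WT replicate 3, and 81.3, 76.3, 122 and 47.1 in EZH2 GOF tumors, against 480.2, 256 and 158 in EZH2 WT tumors (-1.87). Rgl3, an activator of Ral GTPases, had 59.6, 66.4, 52.97 and 62.02 in EZH2 LOF tumors, against 40.1, 28.8 and 20.2 in EZH2 WT tumors (1.02). It had 56.8, 142, 50.4 and 129 in EZH2 GOF tumors, against 544, 219.6 and 365 in EZH2 WT tumors (-1.99). Of these 3, Scube3 alone had overlapping groups, in EZH2 LOF.

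Grid2ip, a Purkinje cell protein that binds the delta-2 glutamate receptor, was the 1 synaptic gene of this class, with 133, 124, 118 and 111 in EZH2 LOF tumors, against 46.2, 62.96 and 46.6 in EZH2 WT tumors (1.23). It had 30.3, 347, 108 and 195 in EZH2 GOF tumors, against 534, 846 and 936 in EZH2 WT tumors (-2.18), and without EZH2 GOF replicate 2 the ratio was -2.79. Lrp2, the endocytic receptor megalin, had 68.7, 29.98, 33.1 and 50.1 in EZH2 LOF tumors, against 30.1, 14.8 and 15.5 in EZH2 WT tumors (1.18), which overlapped, and 16.8, 18.7, 22.5 and 26.4 in EZH2 GOF tumors, against 694, 96.4 and 36.6 in EZH2 WT tumors (-3.71 ± 1.11). The large ratio in EZH2 GOF leaned on the shallow EZH2 WT replicate 1 and was -1.66 without it. The remaining genes were Elmo3, which takes part in Rac activation (0.84 in EZH2 LOF, with overlap, and -1.65 in EZH2 GOF), and Tmem260, known in human as an O-mannosyltransferase (0.56 and -1.02). Of the 50-base words of Tmem260, 18.2% occur in other genes.

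In the first experiment this class was even across tumors. As a median over the 23 genes, the ratio to the EZH2 WT mean was 2.17, 2.09, 2.13 and 2.21 in EZH2 LOF, against 0.95, 0.94 and 1.05 in EZH2 WT. In the second experiment it was 0.40, 0.32, 0.34 and 0.21 in EZH2 GOF, against 1.30, 0.86 and 0.82 in EZH2 WT. The shallow EZH2 WT replicate 1 was the highest control for 17 of the 23 genes and the lowest for 5. Without it the log2 ratio in EZH2 GOF was nearer 0 for 17 genes and further from 0 for 6, such as Zbtb46 (-2.69, against -2.34 with it), and its median was -1.34, against -1.74. The EZH2 GOF medians lie below those of replicates 2 and 3 as well. Of 10 skeletal muscle markers, 6 are in the gain-of-function list (Cdh15, Clcn1, Neb, Ryr1, Smpx and Trim72), and none is a shared gene. Acta1, Myh1, Myh4 and Ckm are not in that list, so the 6 do not establish muscle tissue. They were also highest in that control, with sums of 208, 181, 163 and 146 in EZH2 GOF, against 3831, 1249 and 2078 in EZH2 WT. Their part in these ratios was not tested.

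The 9 genes lower in both mutants held 3 of the 5 shared matrix genes. The 11 matrix genes listed in EZH2 GOF only were all lower there. Lum, the collagen-binding proteoglycan lumican and a fibroblast marker, had 13.7, 4.28, 5.89 and 7.16 in EZH2 LOF tumors, against 96.3, 43.2 and 31.05 in EZH2 WT tumors (-2.87 ± 0.64), a ratio of -2.26 without EZH2 WT replicate 1. It had 54.9, 57.5, 87.9 and 9.88 in EZH2 GOF tumors, against 331, 167 and 380.3 in EZH2 WT tumors (-2.48 ± 0.54). Ltbp2, a protein of elastic microfibrils, had 0, 6.42, 12.5 and 8.35 in EZH2 LOF tumors, against 19.5, 34.9 and 23.8 in EZH2 WT tumors (-1.93), and 49.1, 33.4, 26.8 and 16.5 in EZH2 GOF tumors, against 160.1, 298 and 493 in EZH2 WT tumors (-3.33). In LOF replicate 13 no read of Ltbp2 was counted, and 3 reads there would be worth 13.7 normalized counts. Without LOF replicates 13 and 14 the ratio of Ltbp2 was -1.32. Adamts15, a protease of proteoglycans, had 9.17, 27.8, 22.8 and 27.4 in EZH2 LOF tumors, against 33.96, 81.2 and 73.5 in EZH2 WT tumors (-1.53). It had 274, 94.3, 93.3 and 118 in EZH2 GOF tumors, against 416, 439 and 538 in EZH2 WT tumors (-1.68). The groups of all 3 were apart in both experiments. Of the fibroblast markers other than Lum, 4 of 10 are in the loss-of-function list and summed to 9977 to 12250 in EZH2 LOF, against 15958 to 27315 in EZH2 WT. Nearly all of that sum was Pdgfra, a growth factor receptor also counted as a precursor marker. The other 3 did not share a direction. Dcn, the proteoglycan decorin, had 9.17, 12.8, 18.4 and 10.7 in EZH2 LOF, against 236, 103 and 68.3 in EZH2 WT, and Col3a1, a fibrillar collagen, averaged 243 and 828 with overlapping groups. Ogn, a small proteoglycan, went the other way without overlap, at a mean of 18.04 in EZH2 LOF and 7.29 in EZH2 WT (1.31 on the log2 scale). The marker in the gain-of-function list, Col14a1, had 40.7, 23.4, 49.3 and 54.1 in EZH2 GOF, against 458.8, 105 and 78.2 in EZH2 WT. Their part in the values of Lum was not tested. Gpc5 and Scube3, the other shared matrix genes, had opposite signs in the 2 mutants.

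Transporters and other genes lower in both were mostly at low levels in the first experiment. Slc1a6, the glutamate transporter of Purkinje cells, had 9.17, 17.1, 12.5 and 31.01 in EZH2 LOF tumors, against 33.96, 97.1 and 21.7 in EZH2 WT tumors (-1.55), which overlapped and was -0.67 without EZH2 WT replicate 2. It had 174, 121, 153 and 163 in EZH2 GOF tumors, against 288, 1262 and 1313 in EZH2 WT tumors (-2.64). Stra6, a receptor for retinol uptake, had 9.17, 17.1, 11.03 and 3.58 in EZH2 LOF tumors, against 43.4, 32.995 and 34.2 in EZH2 WT tumors (-1.85). It had 91.02, 57.5, 78.3 and 109 in EZH2 GOF tumors, against 192, 244 and 418 in EZH2 WT tumors (-1.76). Its groups were apart in both. Wscd2 had 18.3, 19.3, 11.8 and 17.9 in EZH2 LOF tumors, against 43.4, 101 and 10.9 in EZH2 WT tumors (-1.62), which overlapped and was -0.69 without EZH2 WT replicate 2. It had 855, 182, 312 and 55.1 in EZH2 GOF tumors, against 1184, 1744 and 3558 in EZH2 WT tumors (-2.62), and -3.56 without EZH2 GOF replicate 1. Lbp, the lipopolysaccharide-binding protein and one of the choroid plexus markers, had 9.17, 6.42, 5.89 and 2.39 in EZH2 LOF tumors, against 10.6, 21.2 and 15.01 in EZH2 WT tumors (-1.39). It had 81.3, 41.5, 166 and 16.9 in EZH2 GOF tumors, against 213, 675 and 378 in EZH2 WT tumors (-2.46), a ratio that was -3.18 without EZH2 GOF replicate 3. In EZH2 LOF and WT tumors Lbp thus stood at a few normalized counts up to 21.2, close to the worth of single reads in the shallow tumors. In the gain-of-function experiment the 2 listed choroid plexus markers other than Lbp and Trpv4 summed to 10.97, 18.1, 105 and 18.8 in EZH2 GOF, against 245, 571 and 540.0 in EZH2 WT, and their part in the values of these genes was not tested.

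Both signaling genes of this class had overlapping groups in the second experiment. Chn2, a Rac-inactivating chimaerin, had 142, 107, 135 and 138 in EZH2 LOF tumors, against 197, 528 and 254 in EZH2 WT tumors (-1.32), a ratio of -0.79 without EZH2 WT replicate 2. It had 1183, 948, 656 and 1802 in EZH2 GOF tumors, against 854, 6255 and 8876 in EZH2 WT tumors (-2.22). Pde5a, a phosphodiesterase of cyclic GMP, had 50.4, 53.5, 47.8 and 60.8 in EZH2 LOF tumors, against 141, 154 and 54.9 in EZH2 WT tumors (-1.14). It had 705, 381, 435 and 97.4 in EZH2 GOF tumors, against 629.5, 1699.5 and 3362 in EZH2 WT tumors (-2.23), a ratio of -1.53 without EZH2 WT replicate 3. Pde5a was the 1 gene of the 65 with overlap in both.

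Most listed cerebellar markers were lower in the mutants, as this class was, but few of them are in the loss-of-function list. EZH2 WT replicate 2 was the highest of the controls for 7 of the 9 genes in the first experiment, and EZH2 WT replicate 3 for 8 of the 9 in the second. Of 17 granule cell markers 1 is in the loss-of-function list, Fat2, with 9.17, 4.28, 2.94 and 2.39 in EZH2 LOF tumors, against 104, 837 and 11.4 in EZH2 WT tumors. Of 11 Purkinje markers the 1 in that list that is not shared, Itpr1, had 829.5, 1015, 875 and 957 in EZH2 LOF tumors, against 1776, 4523 and 1389 in EZH2 WT tumors. Both were highest in EZH2 WT replicate 2. Fat2 differed between EZH2 WT replicates 1 and 3, where the medians of the 9 genes were alike (0.75 and 0.78). The shared Purkinje markers split in EZH2 LOF: Slc1a6 was lower (-1.55, with overlap), whereas Grid2ip was higher (1.23) without overlap. The gain-of-function list holds 14 of the 17, all lower in EZH2 GOF, with sums of 2618, 1387, 1937 and 797, against 5751, 22059 and 43000.2 in EZH2 WT. Purkinje markers other than the shared genes, 6 of 11 in the gain-of-function list, summed to 708, 1023, 531 and 1129 in EZH2 GOF, against 1665, 18121 and 34843 in EZH2 WT. In EZH2 GOF replicate 4, 1 marker of each list was at 0, and in the other 6 tumors of this experiment none was. The part of cerebellar tissue in the ratios of the 9 genes was not tested. As a median over the 9 genes, the ratio to the EZH2 WT mean was 0.25, 0.37, 0.36 and 0.35 in EZH2 LOF, against 0.75, 1.34 and 0.78 in EZH2 WT, and 0.22, 0.18, 0.20 and 0.05 in EZH2 GOF, against 0.51, 0.94 and 1.47 in EZH2 WT.

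**Figure D5:**
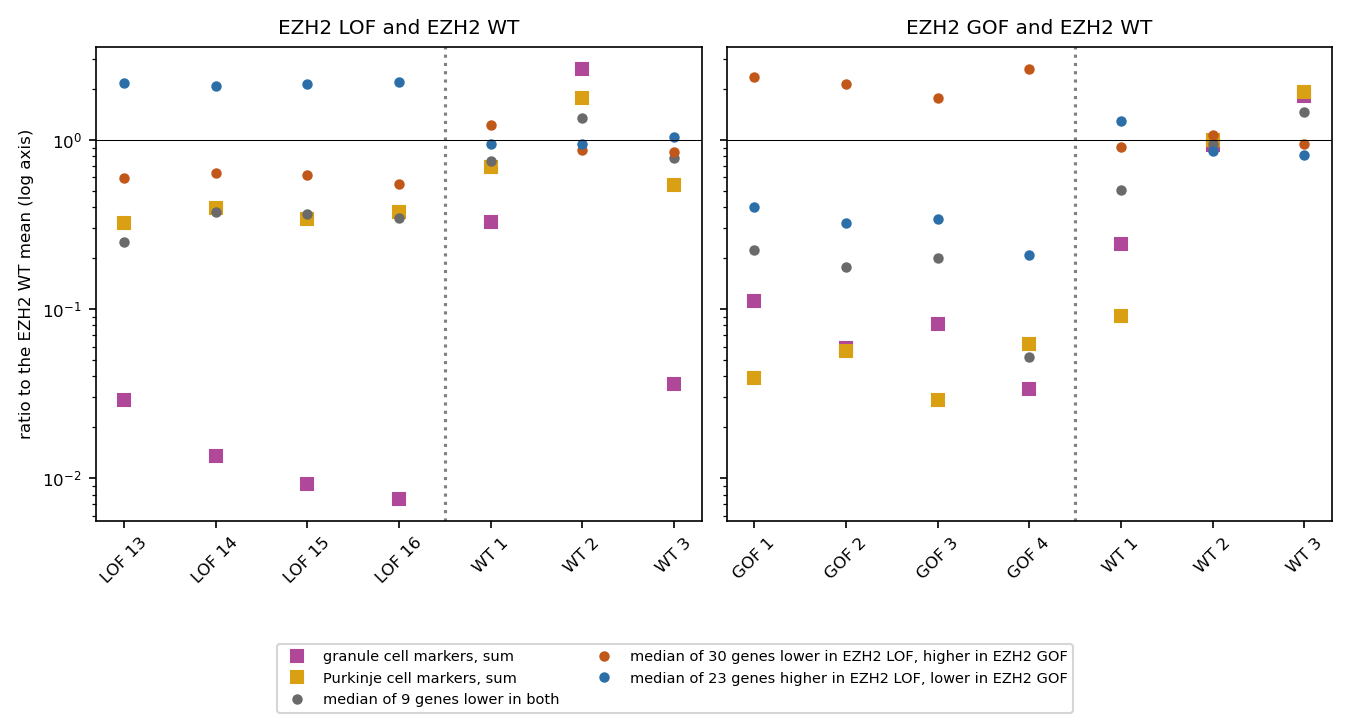
Ratio to the mean of the EZH2 WT group (log axis) in each tumor, for the summed granule and Purkinje cell markers that are not shared genes (squares) and for the median of 3 direction classes (circles), in EZH2 LOF and EZH2 WT tumors (left) and in EZH2 GOF and EZH2 WT tumors (right). In the left panel each marker sum is a single gene, Fat2 or Itpr1. Among the controls the gray circles of the 9 genes lower in both are highest in EZH2 WT replicate 2 on the left, at 1.34. On the right they are highest in EZH2 WT replicate 3, at 1.47. These are also the tumors with the highest marker sums. The blue circles, medians of the 23 genes, are highest in EZH2 WT replicate 3 on the left (1.05) and replicate 1 on the right (1.30). Single genes differ from this median: on the right, EZH2 WT replicate 3 is the highest control for 5 of the 23. The part of cerebellar tissue in any class was not tested.

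The 3 genes higher in both mutants differed widely in size. Tchh, trichohyalin, a structural protein of the hair follicle, had 50.4, 49.2, 39.7 and 40.6 in EZH2 LOF tumors, against 3.90, 4.17 and 2.07 in EZH2 WT tumors (3.73 ± 0.30). It had 127, 90.3, 117 and 95.1 in EZH2 GOF tumors, against 10.7, 27.5 and 33.99 in EZH2 WT tumors (2.16 ± 0.43). Every mutant tumor was above its controls, which stood at a few counts in the first experiment, where the ratio was 2.58 with a pseudocount of 5. Kifc3, a kinesin that moves toward the minus end of microtubules, had 431, 338, 363 and 336 in EZH2 LOF tumors, against 286, 209.7 and 268 in EZH2 WT tumors (0.53). It had 1084, 1584, 1045 and 1354 in EZH2 GOF tumors, against 598, 747 and 714 in EZH2 WT tumors (0.88). Other genes on the opposite strand cover 27.5% of the exon bases of Kifc3. Kcnh5, a voltage-gated potassium channel, had 165, 184, 225 and 255 in EZH2 LOF tumors, against 164, 114 and 155 in EZH2 WT tumors (0.52), where LOF replicate 13 exceeded the highest control by little. It had 2339, 692, 649.9 and 879 in EZH2 GOF tumors, against 395, 455 and 232 in EZH2 WT tumors (1.66 ± 0.58), and without EZH2 GOF replicate 1 the ratio was 1.04. The groups of both genes were apart in both experiments.

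Members shared few neighborhoods. They lay on 20 chromosomes, with at most 8 on 1 of them, chromosome 2. By the listed locations, besides Pter and C1ql3, Tnfrsf21 and Adgrf5 lay 300.3 kb apart on chromosome 17, and both were lower in EZH2 LOF and higher in EZH2 GOF. Syt16 and Kcnh5 lay 629 kb apart on chromosome 12 and had opposite signs in EZH2 LOF.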

How the data were processed

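RNA of 14 mouse tumors was sequenced (rRNA-depleted total RNA, stranded kit, single-end reads). Upstream steps, as the methods and submitters' notes name them, were FastQC, Trim Galore, STAR against mm10, HTSeq with an Ensembl annotation and DESeq2 (no version given in the sources used here). The deposited signal values are counts per gene over each library's size factor, as the authors computed it, listed only for genes they called, 3533 in the loss-of-function list (3553 lines, repeated identifiers taken once) and 294 in the gain-of-function list. The authors also deposited log2 fold changes with standard errors, a Wald score and p-values, which were not used, except that the deposited p-values gave the number of genes tested (13391 and 16173).

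In every library 100% of the values were whole multiples of 1 step (within 0.001 reads), the inverse of its size factor, which gave reads per gene; an outside check of the files bears this out for 5 of 14 libraries only. Totals over listed genes do not give a library's full depth. Replicates differed by more than counting error, but unequally. The chi-square per degree of freedom was 3.05 to 5.39 between pairs of EZH2 LOF tumors and 26.4 to 155 between pairs within the other groups. It grows with the number of reads and was taken over different genes in the 2 experiments, so it does not compare spread alone. The median reads per listed gene were 44 to 280 in EZH2 LOF tumors and 372 to 535 in their EZH2 WT tumors. The cause of the unequal values was not tested.

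Shared genes were 66 by Ensembl identifier, of which 65 entered the counts. Some items are not reported here. Members and gene lists were chosen with earlier results of these data known. Log2 ratios compare group means, with SE by the delta method. Shared genes are named with their ratios, and values of each tumor are given for up to 8 genes of each direction class with the largest smaller ratio and for members of role lists with 3 or more. Counts of calls come from limma 3.58.1 (R 4.3.3) on log2(value + 1), two-sided, with Benjamini-Hochberg adjustment for the number of genes the authors tested. Only listed genes entered the fits, so their variances, which limma pools across genes, come from genes the authors had called. The labels do not say that tumors of a group came from separate animals, so the spread behind each p may be technical. The fits were tested on simulated data. Alternatives were pseudocounts of 0.5 and 5, mean log2 values, group medians, filters on the mean of 10 and 100 (the last added after seeing the data), each tumor left out, EZH2 LOF replicates 13 and 14 left out, a replicate block, and edgeR 4.0.16 and DESeq2 1.42.0 on recovered reads. Shared sequence was gauged as the share of 50-base words found in other genes.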

Additional observations from a re-analysis of the deposited data

Results flagged for a closer look

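Among 130 groups of 4 tumors (65 genes in EZH2 LOF and in EZH2 GOF), 6 held a tumor far from the other 3 by Dixon's criterion, where chance gives about 1 in 20. In EZH2 GOF replicate 1 the highest values of the group stood apart for Gabra3 (2416), Kcnh5 (2339) and Adamts15 (274). EZH2 GOF replicate 3 stood apart as the lowest for Ctnna2 (2756). In EZH2 LOF, replicate 14 was the lowest for Dleu2 (306) and replicate 16 for 4632427E13Rik (247).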

How the results depend on the processing

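No log2 ratio of the 65 genes changed sign in 1770 values under other pseudocounts, means, medians, filters, left-out tumors or the replicate block, and 20 of them moved by more than 1 SD; since the rule chose genes by these contrasts, this is no independent sign of stability. The counts by direction (30, 23, 9 and 3) were kept with each tumor left out. A mean of at least 100, added after seeing the data, left 8 of the 23 and 1 of the 9, with 33 genes apart in EZH2 LOF and 36 in EZH2 GOF; a mean of at least 10 removed none. In EZH2 LOF limma called 42 of the 65, 21 to 41 with 1 tumor left out and 13 without replicates 13 and 14, and 2150 of all listed genes, 815 to 1924 with 1 left out and 271 without both. In EZH2 GOF limma called 0 of the 65, 0 to 1 with 1 tumor left out, against 33 with edgeR's TMM and 34 with DESeq2. Of all 294 it called 12 (0 higher, 12 lower), 0 to 23 with 1 left out, 3 with a pseudocount of 0.5, 4 with edgeR on the authors' size factors, 75 with TMM (67 higher, 8 lower) and 91 with DESeq2 (67 higher, 24 lower). The last 2 set their scale on listed genes alone. Same-numbered tumors of the gain-of-function experiment did not deviate together (correlations of -0.07, -0.18 and 0.01). Taken over listed genes alone and with 1 shallow control, these correlations cannot decide whether the numbers pair the tumors. A replicate block on numbers 1 to 3 gave 3 of the 65 and 59 of 294 (4 higher, 55 lower). On the same tumors without a block, limma called 0 of the 65 and 0 of 294. The loss-of-function groups share no number and could not be blocked. The cause of these moves was not tested. Counts in EZH2 WT replicate 1 of the second and EZH2 LOF replicate 13 of the first experiment are limited by depth.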
